A study of Homo sapiens with 6 samples.

Results

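The genes described here build multivesicular endosomes, sort cargo into their internal vesicles, or mark those vesicles once they leave the cell as exosomes. They were taken from 2 deposited tables of an RNA sequencing comparison in HCT116, a human colorectal carcinoma cell line. A gene belongs if its symbol starts with CHMP, TSPAN or VPS37 or is 1 of 26 further symbols of the endosomal sorting complexes (ESCRT), the tetraspanins, the syndecans and their exosome partners. This rule found 39 genes among the 7681 genes of both tables. It used no measured value, but it was written with earlier results of these data known. RefSeq holds 63 protein-coding genes of the same rule, so that 24 of them stand in neither table.

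The study compared 3 cultures of wild-type HCT116 cells with 3 cultures labelled as Rab27B KO, in which the small GTPase gene RAB27B was targeted by CRISPR/Cas9. All 6 cultures were untreated and grown for 48 hours in the same medium, and the submitters call the 3 cultures of each genotype biological replicates. The sources used here do not say whether the edited cells are 1 clone or a pool. Values of single cultures were not analysed here: neither depth nor the spread between cultures is known, and the fold changes carry no error.

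Each listed gene has the log2 of its ratio, Rab27B KO over wild type, and a q-value, the authors' own adjusted measure of error for each gene. All listed genes have a q-value below 0.05. A gene in neither table either missed that threshold or was not measured, and these cases cannot be told apart. The transcript of the targeted gene was not lower: the cultures labelled Rab27B KO had 36.7-fold more RAB27B transcript than wild type by the authors' deposited table. Its q-value was listed as 0. These values are of RNA and do not show whether RAB27B protein was lost. The paralog of RAB27B, RAB27A, was in neither table. Higher and lower below thus always mean the cultures labelled Rab27B KO against the cultures labelled wild type. The files do not settle whether the labels were swapped, the direction of the ratio was, or neither. With the labels or the ratio swapped, every direction below would turn. In whole cultures, fewer cells with a transcript and less of it per cell cannot be told apart.

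The ESCRT machinery works in steps. ESCRT-0 binds ubiquitinated cargo on the endosome, ESCRT-I and ESCRT-II deform the membrane, and ESCRT-III filaments made of CHMP proteins cut the neck of the budding vesicle, after which the VPS4 ATPases take the filament apart. A parallel route recruits ESCRT-III through syndecans, their adaptor syntenin and the bridging protein ALIX. Tetraspanins are membrane-spanning proteins that gather partner receptors into patches, and several of them serve as exosome markers. RAB27B is known for docking such endosomes at the plasma membrane.

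Most of these genes were listed, and most of the listed ones as higher. Of the 63 genes 39 were listed, a share of 61.9%, beside 37.9% of 20056 RefSeq protein-coding genes. That base includes genes whether or not HCT116 cells express them, and no test of the difference was made. The authors' deposited table gave 30 of the 39 members as higher and 9 as lower. The higher share was 76.9%, beside 50.7% of all listed genes, and the lower share 23.1%, beside 49.3%. With the direction turned, the same genes would be 9 higher (23.1%) and 30 lower (76.9%). Counted over all 63 genes, 47.6% were listed as higher and 14.3% as lower, beside 19.2% and 18.7% of RefSeq protein-coding genes. The median log2 fold change of the members by the authors' deposited table was 0.23, beside 0.12 over all listed genes.

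The changes were mostly small. The median higher member was 1.26-fold higher and the median lower member 1.50-fold lower, beside 1.33-fold in either direction over all listed genes, by the authors' deposited table. A log2 change of at least 0.5 was listed for 14 members, 35.9% of them, beside 38.7% of all listed genes. Those 14 were 8 higher and 6 lower members, whereas the 25 members with smaller changes were 22 higher and 3 lower. Only TSPAN1 reached a log2 change of 1, beside 12.6% of all listed genes. The q-value was below 0.01 for 32 members (82.1%, beside 84.9% of all listed genes) and below 0.001 for 28 (71.8%, beside 70%). At the other end, 12 members (30.8%, beside 22.2% of all listed genes) changed by less than 0.25 on the log2 scale.

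**Figure D1:**
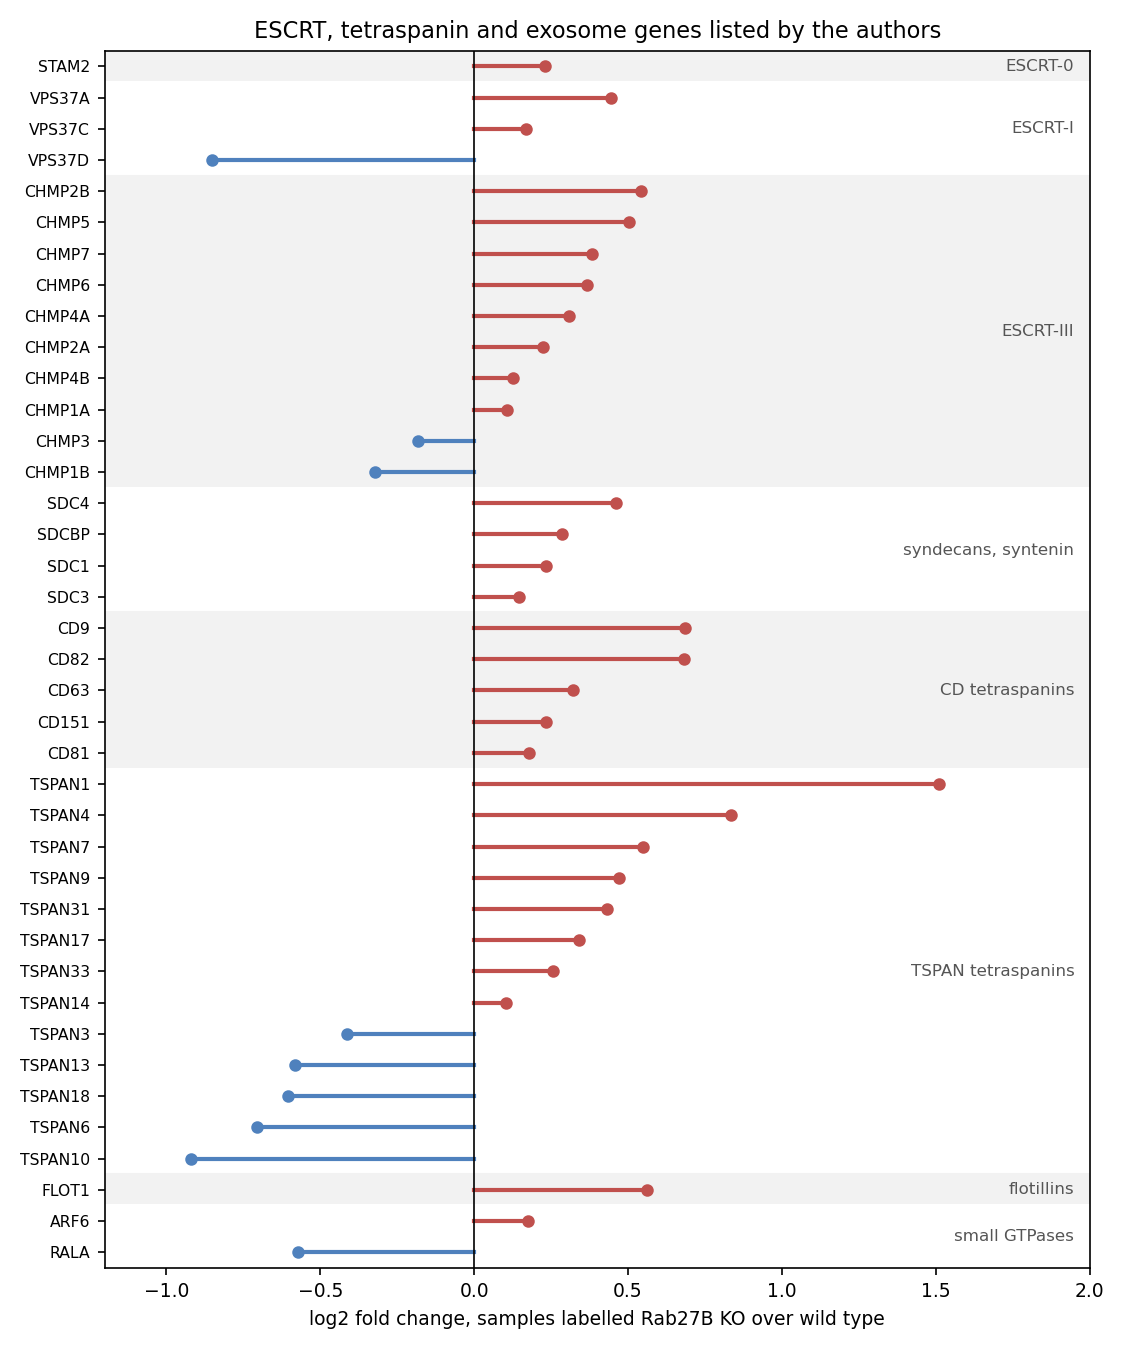
Each point is the log2 fold change of 1 listed member (horizontal axis, samples labelled Rab27B KO over wild type, authors' values without error), grouped by class; red is higher and blue lower. TSPAN1 at 1.51 and TSPAN10 at -0.92 are the ends of the range, and the rule's 5 CD tetraspanins, 3 syndecans and syntenin lie above 0.

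Of the rule's 11 genes of ESCRT-0, ESCRT-I and ESCRT-II 4 were listed, a share of 36.4%, near the 37.9% of all protein-coding genes. Of the 3 genes of ESCRT-0 only STAM2, an adaptor that binds ubiquitinated cargo, was listed, 1.17-fold higher with q = 0.0220 by the authors' deposited table. HGS, which encodes its partner HRS, and the close paralog STAM were in neither table. Within the rule, ESCRT-I was represented by VPS37 subunits alone. Its core subunits TSG101 and VPS28, and also VPS37B, were in neither table. Outside the rule, the ESCRT-I genes MVB12A and UBAP1 were listed as higher and MVB12B as lower. VPS37A was 1.36-fold higher (q = 4.17e-11) by the authors' deposited table. VPS37C was 1.12-fold higher with q = 0.0342, close to the listing threshold, by the authors' deposited table. VPS37D went the other way and was 1.80-fold lower (q = 7.15e-09) by the authors' deposited table. The 4 VPS37 proteins take the same place in alternative forms of ESCRT-I, and their transcripts thus differed in direction. Both ESCRT-II genes of the rule, VPS25 and VPS36, were in neither table.

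ESCRT-III was the most fully listed part of the machinery, with 10 of its 11 CHMP genes (90.9%, beside 37.9% of RefSeq protein-coding genes). IST1, an ESCRT-III gene outside the rule, was in neither table. Of the 10 listed genes 8 were higher and 2 lower, beside 50.7% higher among all listed genes. Their median log2 fold change was 0.27 by the authors' deposited table. CHMP2B, a late filament subunit known for its mutations in frontotemporal dementia, was 1.46-fold higher (q = 2.64e-18) by the authors' deposited table. CHMP5, a regulatory subunit, followed at 1.42-fold higher (q = 5.87e-13) by the authors' deposited table. These were the only ESCRT-III genes with a log2 change above 0.5. CHMP7, which starts ESCRT-III assembly at the nuclear envelope, was 1.30-fold higher (q = 1.20e-10) by the authors' deposited table. CHMP6, which links ESCRT-II to the filament, was 1.29-fold higher with q = 1.79e-04 by the authors' deposited table.

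Within ESCRT-III, paralogs did not always go together. CHMP2A, like CHMP2B a late subunit, was 1.17-fold higher (q = 3.05e-04) by the authors' deposited table. The main filament formers CHMP4A and CHMP4B were 1.24-fold (q = 0.0101) and 1.09-fold (q = 0.0230) higher by the authors' deposited table, and the third paralog, CHMP4C, was in neither table. CHMP1A was 1.08-fold higher with q = 0.0184, whereas CHMP1B was 1.25-fold lower with q = 1.92e-06 by the authors' deposited table. CHMP3, which caps the filament with CHMP2A, was 1.13-fold lower (q = 0.00204) by the authors' deposited table. Thus the CHMP2 and the listed CHMP4 paralogs shared a direction and the CHMP1 paralogs did not. CHMP3 shares 10.8% of its exon bases with a read-through transcript gene in GENCODE, RNF103-CHMP3, and CHMP4A shares 26.7% with the same-strand gene AL136295.1. Reads shared between such genes make both values uncertain. VPS4A and VPS4B, the ATPases that recycle the filament, were in neither table.

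**Figure D2:**
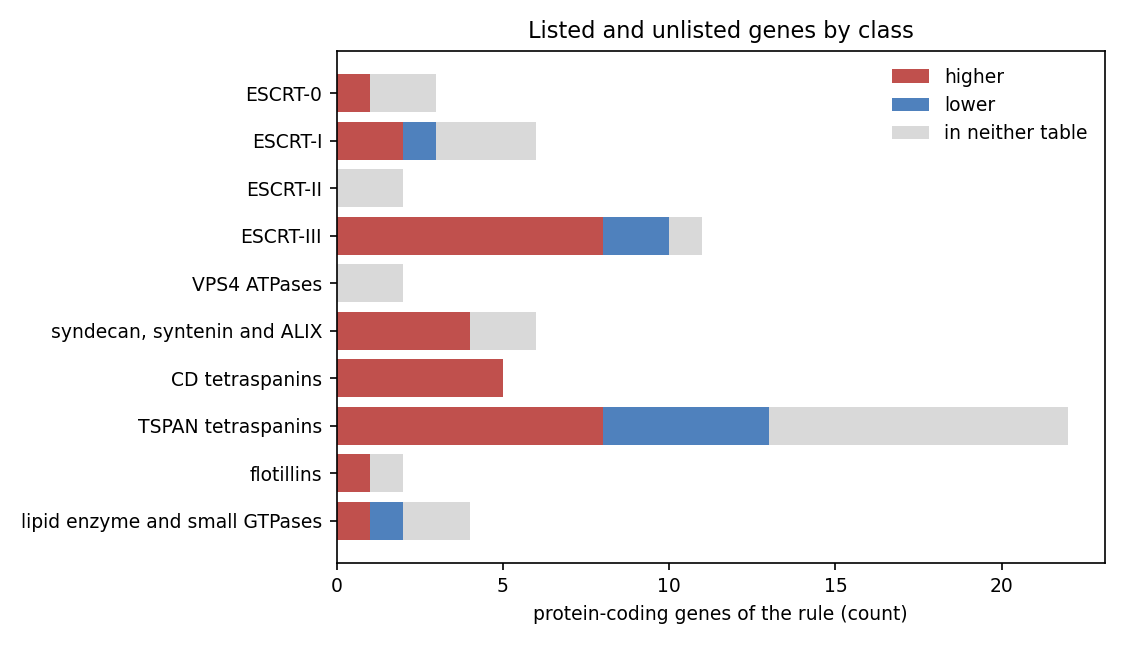
Bars count the protein-coding genes of the rule in each class (horizontal axis), split into those listed as higher (red), listed as lower (blue) and in neither table (grey). ESCRT-III has 10 of 11 genes listed, and ESCRT-II and the VPS4 ATPases have none.

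The promoter letters of 2 ESCRT-III genes with opposite directions are shown because they hold motifs of known stress and lysosome regulators. Promoters, taken from RefSeq on GRCh38.p14 as 250 bases before to 50 after a start site, were found for 27 of the 39 members, and the other 12 were not searched. In 22 of the 27 the start site is the outer end of the RefSeq gene, and in 5, CD63, CD82, SDC3, TSPAN10 and VPS37D, it lies inside the gene. They were searched on both strands for CACGTG, the E-box at the centre of the lysosomal CLEAR element, for the cyclic AMP response element TGACGTCA, for the AP-1 site TGAGTCA and for the CCAAT box CCAAT. The CHMP4A stretch at chr14:24213585-24213614, minus strand, has the E-box in capitals, 114 bases before the start, within an exon annotated in GENCODE. The CHMP1B stretch at chr18:11851327-11851395, plus strand, has the cyclic AMP response element in capitals, 46 bases before the start.
CHMP4A: ggtggcttgggtCACGTGacaccggtggtc
CHMP1B: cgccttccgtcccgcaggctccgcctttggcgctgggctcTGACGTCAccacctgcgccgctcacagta

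Among the 27 member promoters searched, that of CHMP1B alone held the cyclic AMP response element, a share of 3.7%, beside 2.59% of 15843 protein-coding promoters of the same length. The E-box was found in 3 of the 27 member promoters, a share of 11.1%, beside 8.88% of protein-coding promoters and 10.2% of the 6209 promoters of listed genes. The CCAAT box was found in 6 of 27, a share of 22.2%, beside 36.4% of protein-coding promoters. A match describes letters only.

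In the syndecan and syntenin route, all listed genes of the rule were higher, beside 50.7% of all listed genes. Syndecans are heparan sulfate proteoglycans of the cell surface, and syntenin binds their cytoplasmic tails and hands them to ALIX. SDC4 was 1.38-fold higher (q = 3.18e-18) by the authors' deposited table. SDC1, the main epithelial syndecan, was 1.18-fold higher (q = 1.77e-04) and SDC3 1.11-fold higher (q = 0.00168) by the authors' deposited table. SDCBP, which encodes syntenin, was 1.22-fold higher (q = 5.32e-09) by the authors' deposited table. SDC2 and PDCD6IP, which encodes ALIX, were in neither table. Thus 4 of the 6 genes were listed (66.7%, beside 37.9% of RefSeq protein-coding genes). The range of log2 fold changes by the authors' deposited table was 0.15 to 0.46.

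The 5 CD tetraspanins of the rule, which include the usual exosome markers, were all listed and all higher. Beside them, 37.9% of RefSeq protein-coding genes were listed, and 50.7% of all listed genes were higher. The tetraspanin genes CD37 and CD53, outside the rule, were in neither table. CD9 was 1.61-fold higher, and its q-value of 4.94e-66 was the smallest of any member by the authors' deposited table. CD82, known as a suppressor of metastasis, was likewise 1.60-fold higher (q = 3.68e-12) by the authors' deposited table. CD63, a tetraspanin of late endosomes and lysosomes, was 1.25-fold higher (q = 5.34e-10) by the authors' deposited table. CD151, a partner of laminin-binding integrins, was 1.18-fold higher (q = 1.13e-07) by the authors' deposited table. CD81, the third common exosome marker, was 1.13-fold higher (q = 4.25e-05) by the authors' deposited table. The marker trio CD9, CD63 and CD81 thus covered a range of log2 fold changes from 0.18 to 0.69 by the authors' deposited table, and 91.1% of all higher listed genes had a larger change than CD81. CD151 shares 6.53% of its exon bases with POLR2L on the opposite strand, which was itself higher, at a log2 fold change of 0.25 by the authors' deposited table. The sources used here do not say whether reads were counted by strand.

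The genes named TSPAN went both ways. Of 22 genes 13 were listed (59.1%, beside 37.9% of RefSeq protein-coding genes). They were 8 higher and 5 lower, beside 50.7% higher among all listed genes. Their log2 fold changes by the authors' deposited table ran from -0.92 to 1.51. TSPAN1, an epithelial tetraspanin found at the cell surface and in lysosomes, was 2.85-fold higher (q = 8.83e-35), the largest change of any member by the authors' deposited table. Only 5.98% of higher listed genes had a larger change. TSPAN4, known as a marker of migrasomes, the vesicles left on the retraction fibres of moving cells, was 1.78-fold higher (q = 1.08e-27) by the authors' deposited table. TSPAN7 was 1.46-fold higher (q = 8.89e-06) by the authors' deposited table, and GENCODE gives a same-strand gene, AF241726.2, that shares 21.7% of its exon bases. TSPAN9 was 1.38-fold higher (q = 1.12e-09) by the authors' deposited table. TSPAN31 was 1.35-fold higher (q = 0.00498) by the authors' deposited table, and shares 25.4% of its exon bases with CDK4 on the opposite strand, a gene in neither table.

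A log2 change of at least 0.5 was listed for 4 of the 5 lower and 3 of the 8 higher TSPAN genes, beside 38.7% of all listed genes. TSPAN6, reported to act on exosome release and cargo degradation, was 1.63-fold lower (q = 1.74e-18) by the authors' deposited table. TSPAN18 was 1.52-fold lower (q = 1.32e-14) and TSPAN13 1.50-fold lower (q = 6.52e-11) by the authors' deposited table. TSPAN3 was 1.33-fold lower with q = 1.47e-19 by the authors' deposited table. TSPAN10 had the largest fall of all members, 1.89-fold, but a q-value of only 0.0299 by the authors' deposited table. TSPAN10 therefore combined the lowest fold change with 1 of the weakest q-values, whereas TSPAN3 combined a smaller fall with the smallest q-value among lower members. The 9 TSPAN genes in neither table were TSPAN2, TSPAN5, TSPAN8, TSPAN11, TSPAN12, TSPAN15, TSPAN16, TSPAN19 and TSPAN32.

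A subgroup of tetraspanins called TspanC8, which escorts the protease ADAM10 to the cell surface, was examined after the values were seen. It has 6 members, of which 3 were higher, 1 was lower and 2 were in neither table. Of the 6, 66.7% were listed, beside 37.9% of RefSeq protein-coding genes. Of the 4 listed, 3 were higher, beside 50.7% higher among all listed genes. TSPAN17 and TSPAN33 were 1.27-fold (q = 1.10e-07) and 1.19-fold (q = 0.00614) higher by the authors' deposited table. TSPAN14, at 1.08-fold higher with q = 0.0344, had the smallest change and the largest q-value of all members by the authors' deposited table. The lower gene was TSPAN10, and TSPAN5, TSPAN15 and ADAM10 itself were in neither table.

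Tetraspanin promoters with matches are shown because the same letters occur in genes that differ in direction. The CD63 stretch at chr12:55729172-55729201 and the TSPAN6 stretch at chrX:100637181-100637266, both on the minus strand, have the E-box in capitals, 180 and 122 bases before the start used by RefSeq. The TSPAN10 stretch at chr17:81642082-81642275, plus strand, has a pair of AP-1 sites in capitals, 183 and 76 bases before that start. The start sites of CD63 and TSPAN10 lie 1.03 and 5.11 kb inside the RefSeq gene, so these windows are not at its outer end. That of TSPAN6 is the outer end in RefSeq, but the stretch lies inside the longer span GENCODE gives that gene. The CD63 stretch falls in an annotated exon.
CD63: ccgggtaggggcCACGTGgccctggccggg
TSPAN6: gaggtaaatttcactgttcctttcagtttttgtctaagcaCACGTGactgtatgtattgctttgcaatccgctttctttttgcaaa
TSPAN10: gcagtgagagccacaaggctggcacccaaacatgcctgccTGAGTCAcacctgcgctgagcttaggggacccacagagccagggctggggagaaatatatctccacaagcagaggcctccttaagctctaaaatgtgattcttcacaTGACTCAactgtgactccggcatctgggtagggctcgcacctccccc

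CD63 was higher and TSPAN6 lower with the same E-box letters. AP-1 letters were found in 2 of 27 member promoters (7.41%), CD63 and TSPAN10, which again differ in direction, and in 3.66% of protein-coding promoters. TSPAN1, the member with the largest rise, had none of the motifs searched in its window. The part of these motifs in the members' direction was not tested.

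Among the remaining members, FLOT1 was 1.48-fold higher (q = 5.32e-26) by the authors' deposited table. It encodes flotillin-1, a scaffold of membrane rafts and a common exosome protein, and its partner gene FLOT2 was in neither table. RALA, a Ras-like GTPase that works through the exocyst and is known to act in exosome secretion, was 1.49-fold lower (q = 1.36e-15) by the authors' deposited table. ARF6, a GTPase of endosomal recycling that acts with phospholipase D2 in the syntenin route, was 1.13-fold higher (q = 1.55e-04) by the authors' deposited table. RALB, the paralog of RALA, and SMPD3, which encodes the neutral sphingomyelinase of ceramide-dependent exosome formation, were in neither table.

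**Figure D3:**
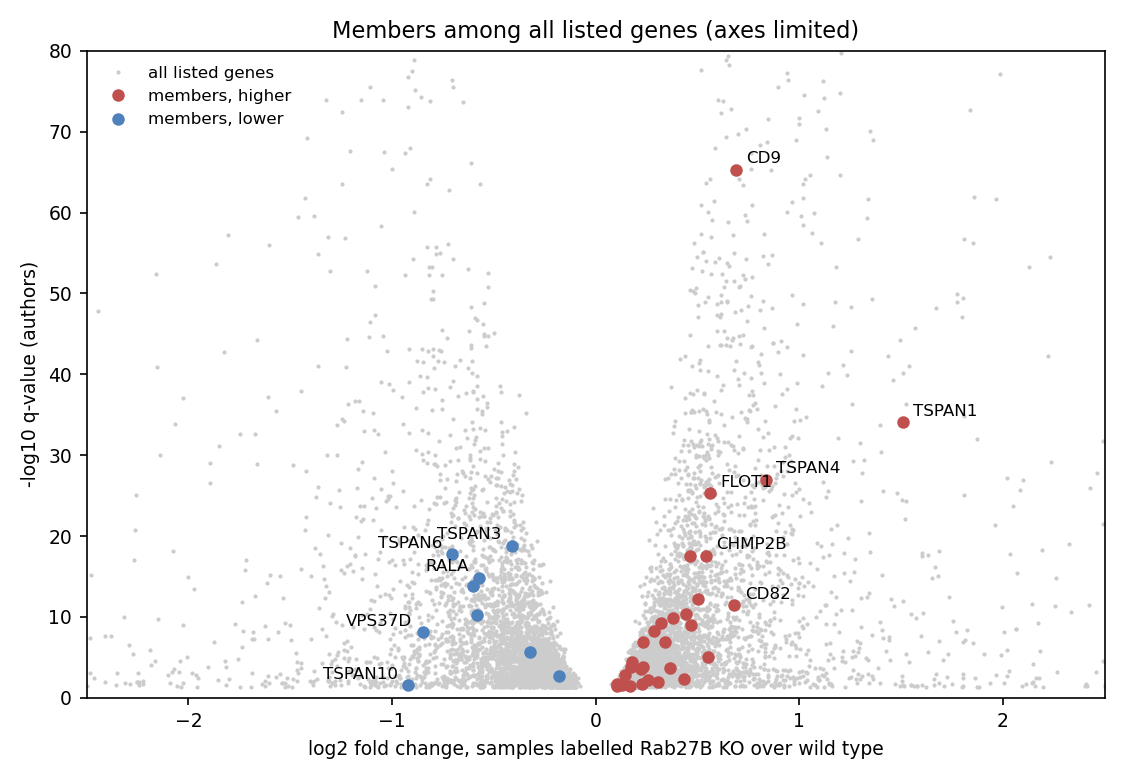
Each grey point is 1 listed gene by its log2 fold change (horizontal axis) and the -log10 of the authors' q-value (vertical axis); members are red where higher and blue where lower, and 361 listed genes lie outside the limits of the axes. CD9 has the smallest q-value and TSPAN1 the largest change, while most members sit low among genes with small changes.

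Members were also compared with the other genes of their chromosome. Chromosomes 4, 7, 13 and 15 had the lowest shares of higher genes in these same data, and 4 and 13 held no listed member. On these 4 chromosomes, where 22.9% of 1103 listed genes were higher, 1 member was higher and 4 were lower. These were TSPAN33 on the higher side and VPS37D, TSPAN13 and RALA on chromosome 7 and TSPAN3 on chromosome 15 on the lower side. On all other chromosomes 55.5% of 6553 listed genes and 29 of 34 members were higher. The log2 fold change of TSPAN3, -0.41, equalled the median of all listed genes on chromosome 15 to 2 decimals by the authors' deposited table. Among listed genes starting within 1 Mb, none was higher and 4 were lower around RALA, and none was higher and 5 were lower around TSPAN13. The same counts were 1 higher and 5 lower around TSPAN3 and 4 and 9 around VPS37D. The other lower members were TSPAN6 on chromosome X, TSPAN10 on 17, TSPAN18 on 11, CHMP1B on 18 and CHMP3 on 2, where between 47.6% and 56.0% of the other listed genes were higher. Within 1 Mb of them, 1 gene was higher and 5 lower for TSPAN6, 24 and 16 for TSPAN10, 5 and 0 for TSPAN18, 2 and 2 for CHMP1B and 4 and 3 for CHMP3. The part of chromosome in these changes was not tested.

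**Figure D4:**
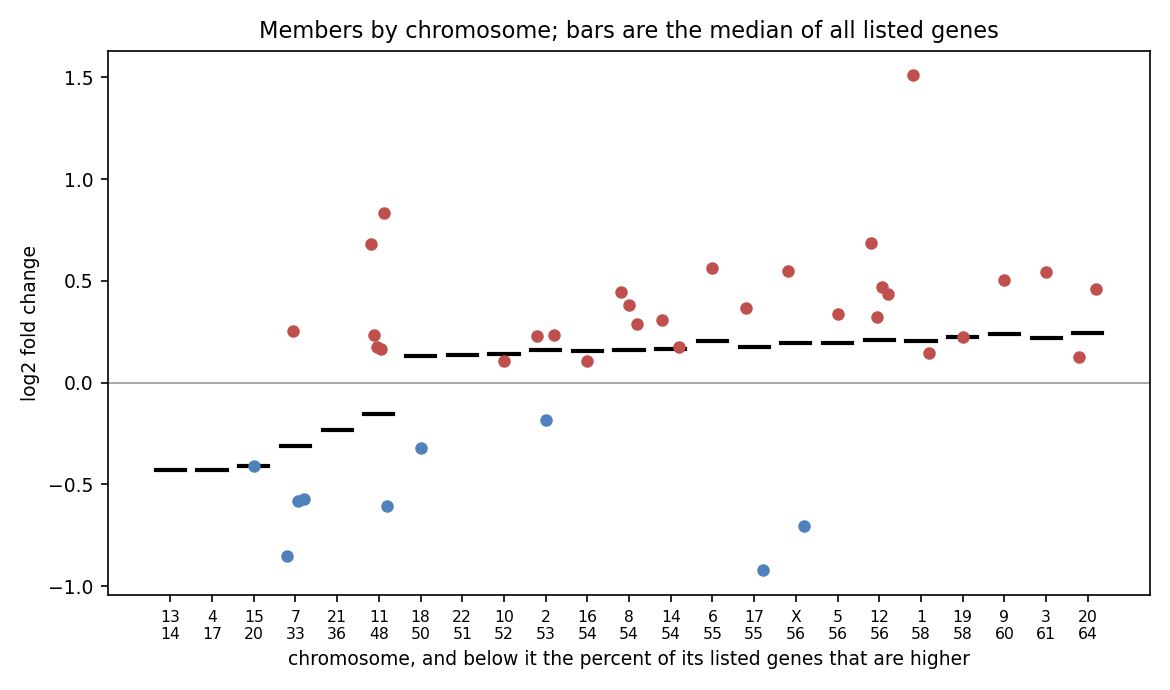
Points are members by chromosome (horizontal axis, ordered by the percent of listed genes that are higher, printed under each name) and log2 fold change (vertical axis), red where higher and blue where lower; black bars are the median of all listed genes on that chromosome. Chromosomes 7 and 15 hold 4 of the 9 lower members, and their bars lie below 0.

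The longest protein-coding GENCODE transcript had a median of 2386 bases for higher members and 3054 bases for lower members, beside 2809 and 4287 bases for all listed higher and lower genes. The part of length in the members' direction was not tested.

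Other genes of the same pathways were read from lists written from general knowledge, with earlier results of these data known. Of 42 further ESCRT subunits and regulators 23 were listed (54.8%, beside 37.9% of RefSeq protein-coding genes). They were 12 higher and 11 lower, beside 50.7% higher among all listed genes. Their median log2 fold change was 0.17 by the authors' deposited table. CEP55, which recruits ESCRT proteins to the midbody in cell division, was 1.86-fold higher (q = 2.68e-76) by the authors' deposited table. SNF8, the ESCRT-II subunit outside the rule, was 1.33-fold higher (q = 2.96e-12) by the authors' deposited table, and is the only listed gene of that complex. The ubiquitin ligase gene WWP2 was 1.27-fold higher (q = 8.32e-10) and the adaptor gene GGA2 1.23-fold lower (q = 9.51e-08) by the authors' deposited table. The list thus held nearly as many lower as higher genes.

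Of 26 genes of tetraspanin partner proteins 18 were listed (69.2%, beside 37.9% of RefSeq protein-coding genes). These partner genes were 13 higher and 5 lower, beside 50.7% higher among all listed genes. Their median log2 fold change was 0.62, beside 0.29 for the 18 listed tetraspanins of the rule, by the authors' deposited table. Of the 4 with the smallest q-values 3 were integrin genes, with ITGB4 3.49-fold higher (q-value listed as 0) and ITGA3 1.79-fold (q = 2.56e-99) and ITGA6 1.86-fold higher (q = 1.25e-95) by the authors' deposited table. These encode the laminin-binding integrins with which CD151 associates. EPCAM, an epithelial adhesion protein found in tetraspanin patches, was 2.23-fold lower (q = 2.78e-184) by the authors' deposited table. Of 6 other genes of the tetraspanin superfamily only the uroplakin gene UPK1A was listed, 2.46-fold higher (q = 1.89e-07) by the authors' deposited table.

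Of 71 other genes of exosome cargo and biogenesis 43 were listed. That share of 60.6% was close to the members' 61.9%, beside 37.9% of RefSeq protein-coding genes. They were 30 higher and 13 lower, beside 50.7% higher among all listed genes. Their median log2 fold change was 0.24 by the authors' deposited table. ISG15, a ubiquitin-like protein induced by interferon, was 4.31-fold higher (q = 3.51e-260) by the authors' deposited table. CAV1 and CAVIN1, which form caveolae, were 2.11-fold (q = 1.39e-120) and 1.69-fold (q = 4.03e-68) higher by the authors' deposited table. ANXA5, a phosphatidylserine-binding annexin, was 1.58-fold higher (q = 6.17e-79) by the authors' deposited table.

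Markers of cell type were read in the same tables, which give no levels, so that the presence of a marker could not be checked. Of 12 colon epithelial markers 7 were listed (58.3%, beside 37.9% of RefSeq protein-coding genes), 4 higher and 3 lower. EPCAM and CDH1 (E-cadherin) had log2 fold changes of -1.15 each, and the keratin genes KRT18 and KRT8 of 0.47 and 0.61 by the authors' deposited table. Of 14 leukocyte markers 4 were listed (28.6%), among them the member TSPAN33 and CD68, at 1.81 on the log2 scale by the authors' deposited table. CORO1A, at -0.55, was the lower one and LYZ, at 1.34, the fourth by the authors' deposited table. PTPRC and the leukocyte tetraspanin genes CD37 and CD53 were in neither table. The part of other cell types in the members' values was not tested.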

How the data were processed

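RNA of 6 HCT116 cultures, 3 labelled wild type and 3 labelled Rab27B KO, was sequenced on the DNBSEQ platform, per the labels' protocols. The submitters' processing notes name HISAT, Bowtie2 and GRCh38. The sources used here give neither counting nor annotation, scaling or test. Per the file headers, the deposited tables give a log2 fold change, a q-value and, for higher genes, a linear ratio or fold. Raising 2 to the log2 value gave the same ratio, and folds of lower genes were computed so.

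No test was added: 39 members were found by symbol, all matched to RefSeq by gene ID with the same symbol, and described by counts and medians beside all listed genes. All members were named, and from each further list the 4 genes with the smallest q-value. Further genes of those lists, such as MVB12A, MVB12B and UBAP1, were named after the values were seen. Genes named for overlaps with members were picked after seeing the annotation. The members and lists were chosen with earlier results of these data known. Depth is unknown. Python 3.11.15 and pandas 2.3.3 were used with GENCODE release 29. The rule, the counts and the motif search were checked on simulated data. Alternatives were stricter q-values, a minimum change, other member sets and leaving out 4 chromosomes.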

Additional observations from a re-analysis of the deposited data

How the results depend on the processing

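Of 28 values under 7 alternatives 23 stayed close to the reported ones (counts within 1.5 times, the median within the members' interquartile range, the higher share within its 95% Wilson interval) and none reversed. The alternatives with RefSeq symbols by gene ID and with only protein-coding genes kept the same 39 members. Their values therefore could not differ, are counted among the 23, and say nothing about stability. The other alternatives kept subsets of the same members, so closeness to the reported values is partly built in. The Wilson interval treats the members as independent of each other, which was not tested. At an absolute log2 fold change of at least 0.5 the members were 8 higher and 6 lower. Their higher share was 57.1%, beside 50.7% of all listed genes past that size. Their median log2 fold change was 0.52, beside 0.51 of all listed genes past that size. Without chromosomes 4, 7, 13 and 15 the members were 29 higher and 5 lower. Their higher share was 85.3%, beside 55.5% of all listed genes on the other chromosomes. Without the genes named TSPAN they were 22 higher and 4 lower. That higher share was 84.6%, beside 50.7% of all listed genes. At a q-value below 0.01 the members were 24 higher and 8 lower, and below 0.001 they were 21 and 7. The higher share was 75% at both, beside 51.1% and 51.5% of all listed genes past those thresholds. No paired analysis was possible because the tables hold no values per sample, and leaving out a replicate could not be run for the same reason. Since depth is unknown, the q-value is the only guide to how many reads lie behind a fold.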

Other observations

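Neighbouring members did not always share a direction. CD82 and TSPAN18 lie 106 kb apart on chromosome 11 and differed in direction, with log2 fold changes of 0.68 and -0.60 by the authors' deposited table. All 5 listed genes starting within 1 Mb of TSPAN18, CD82 among them, were higher. CD151 and TSPAN4 lie 4.02 kb apart on the same chromosome and were both higher, at 0.23 and 0.83 by the authors' deposited table. CHMP6 and TSPAN10, 637 kb apart on chromosome 17, differed in direction as well, at 0.37 and -0.92 by the authors' deposited table. These were the only pairs of members within 1 Mb, and they were examined after the values were seen.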
